A study of Arabidopsis thaliana with 16 samples.

Results

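The nuclear genes for photosynthesis and light harvesting were examined in dark-grown *Arabidopsis thaliana* seedlings treated with ethylene gas. The 49 members, chosen by name, were the *LHCA*, *LHCB*, *PSA*, *PSB*, *PETE* and *RBCS* genes. In the deposited tables of 35814 loci, 44 loci that are named once held 48 of them, and *LHCA5* (AT1G45474) stood at a pair of rows and was kept apart. Of the 44 loci, 5 joined several genes whose reads were summed: *LHCB1.1* with *LHCB1.2*, *LHCB2.1* with *LHCB2.2*, *RBCS1B* with *RBCS2B* and *RBCS3B*, *LHCB6* with AT1G15780 and *LHCB4.1* with AT5G01520. AT1G15780 and AT5G01520 are no members, so levels of *LHCB6* and *LHCB4.1* can include reads of another gene.

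The groups were *cbp20* shoots, Col shoots, *cbp20* roots and Col roots, each with 10 ppm ethylene in hydrocarbon-free air for 4 h or with that air alone. All seedlings were 3 days old and grown in the dark. Col is the wild type, and *cbp20* is a mutant in the Col background of *CBP20*, a gene for the smaller protein of the complex that binds capped RNA in the nucleus. Each of the 8 groups had 2 sequenced libraries. The labels do not name the *cbp20* allele or say whether libraries came from separate seedling cultures. The tables give 1 FPKM (fragments per length of transcript and per total of fragments mapped) for each group and no value for a library. The authors' p-values belong to their own comparison and were not used, so no SD, interval or test is given here, and the sources used here do not give the number of reads. A locus was called past the fold when it reached 1 FPKM in ethylene or air and differed by at least 1.5-fold, and such counts were read against the share of all loci past the same fold. The spread between libraries is unknown, so a locus past the fold is a description of 2 pooled values. The level of *CBP20* was 0.991 and 2.14 FPKM in *cbp20* shoots in ethylene and air, against 31.0 and 35.8 FPKM in Col shoots. In roots it was 0.509 and 0.654 FPKM in ethylene and air in *cbp20*, against 23.8 and 28.6 FPKM in Col.

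In a leaf, light-harvesting chlorophyll proteins gather light for the photosystems. LHCA proteins serve photosystem I and LHCB proteins serve photosystem II, PSA and PSB proteins are subunits of the photosystems themselves, plastocyanin (PETE) carries electrons between them, and RBCS is the small subunit of Rubisco, the enzyme that fixes carbon dioxide. Seedlings in the dark hold etioplasts without a working photosynthetic apparatus, and light strongly raises the transcripts of most of these nuclear genes. PIF transcription factors hold them down in the dark, and GLK and HY5 transcription factors promote them.

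The *LHCB1* and *LHCB2* genes encode the trimeric light-harvesting complex of photosystem II and held both the lowest ethylene-to-air ratios of the members in shoots and the highest level there. The 250 bases upstream of the annotated start are shown for *LHCB2.3* and *LHCB2.2* (joined with *LHCB2.1* in the tables), whose loci were lower in ethylene in all 4 tables, for *LHCB1.5* and *LHCB1.4*, neighbours that are transcribed away from each other, and for *LHCB1.3*, whose level in shoots was within 1.5-fold between ethylene and air. They were read from the RefSeq genome (TAIR10.1) and are given 5′ to 3′ on the gene's strand. Capitals mark the G-box CACGTG and the letters CCAATC.
*LHCB2.3*, chr3:10255691-10255940, plus strand: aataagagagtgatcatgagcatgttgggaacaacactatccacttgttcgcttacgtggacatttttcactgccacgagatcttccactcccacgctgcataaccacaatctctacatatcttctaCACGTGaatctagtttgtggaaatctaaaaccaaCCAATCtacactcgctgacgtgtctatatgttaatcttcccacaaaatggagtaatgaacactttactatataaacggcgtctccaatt
*LHCB2.2*, chr2:1800473-1800722, minus strand: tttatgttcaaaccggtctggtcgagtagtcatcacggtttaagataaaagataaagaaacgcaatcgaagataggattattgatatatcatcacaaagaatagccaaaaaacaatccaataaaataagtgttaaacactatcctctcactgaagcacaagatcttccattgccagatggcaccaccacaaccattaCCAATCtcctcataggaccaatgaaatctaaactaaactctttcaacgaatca
*LHCB1.5*, chr2:14523569-14523818, minus strand: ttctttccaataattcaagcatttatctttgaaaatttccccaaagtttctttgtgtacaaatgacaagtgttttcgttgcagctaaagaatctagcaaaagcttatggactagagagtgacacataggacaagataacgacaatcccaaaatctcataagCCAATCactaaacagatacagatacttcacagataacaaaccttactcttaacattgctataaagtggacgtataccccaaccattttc
*LHCB1.4*, chr2:14524357-14524606, plus strand: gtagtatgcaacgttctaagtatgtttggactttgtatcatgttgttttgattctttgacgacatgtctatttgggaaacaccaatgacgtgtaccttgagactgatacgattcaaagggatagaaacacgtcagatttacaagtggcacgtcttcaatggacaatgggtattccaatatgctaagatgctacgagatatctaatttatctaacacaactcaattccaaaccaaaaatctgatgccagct
*LHCB1.3*, chr1:10477635-10477884, plus strand: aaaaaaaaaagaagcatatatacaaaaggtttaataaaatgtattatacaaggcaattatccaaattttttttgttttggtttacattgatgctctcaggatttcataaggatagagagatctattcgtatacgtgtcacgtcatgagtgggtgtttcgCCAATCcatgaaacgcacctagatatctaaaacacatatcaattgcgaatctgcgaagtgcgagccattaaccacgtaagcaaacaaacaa
The letters CCAATC begin at position -89 from the start in *LHCB2.3* and *LHCB1.5*, at -91 in *LHCB1.3* and at -53 in *LHCB2.2*. The G-box stands at -123 in *LHCB2.3*. The window of *LHCB1.4* holds neither of them.

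The member loci were expressed far more in shoots than in roots. Their median level was 669 FPKM in ethylene and 815 FPKM in air in *cbp20* shoots, and 456 and 703 FPKM in Col shoots. In roots the medians were 19.9 and 22.3 FPKM in ethylene and air in *cbp20*, and 5.86 and 10.4 FPKM in Col. The shoot level was a median 29.7-fold over the root level in ethylene and 37.0-fold in air in *cbp20*, and 74.8-fold and 69.6-fold in Col. These folds set side by side tables that were normalized separately. One member stood out from this pattern. *LHCB4.3* (AT2G40100), a minor antenna protein of photosystem II, had 11.6 and 22.7 FPKM in ethylene and air in *cbp20* shoots, against 17.7 and 16.8 FPKM in *cbp20* roots. It had 12.8 and 15.6 FPKM in ethylene and air in Col shoots, against 15.4 and 18.0 FPKM in Col roots. Its level thus lay in one range in both organs, and it was singled out after its values were seen.

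In *cbp20* shoots 14 of 44 member loci were past the fold and lower in ethylene, and none was higher. Over all loci, 21.4% were past the fold and lower there, and 15.7% were past it and higher. The median log2 ratio of ethylene to air was -0.33 for the members and -0.01 for all loci tested. Of the 44 ratios 37 were below 1. In Col shoots 19 of 44 loci were past the fold and lower and none was higher, beside 21.7% and 15.4% of all loci. The median log2 ratio was -0.56 for the members and -0.01 for all loci, and 42 of the 44 ratios were below 1. Since the members are highly expressed in shoots, loci with at least 100 FPKM in ethylene or air were also counted, a choice made after the data had been seen. In *cbp20* shoots 12 of 41 such member loci (29.3%) were lower, beside 16.4% of all loci at that level. In Col shoots 18 of 40 (45.0%) were lower, beside 18.1% of all. With a 2-fold minimum in place of 1.5-fold, 5 of 44 (11.4%) were lower in *cbp20* shoots, beside 12.2% of all loci, so that the members there did not exceed the background. In Col shoots 11 of 44 were, beside 13.4% of all.

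In *cbp20* roots 10 of 42 member loci were past the fold and lower in ethylene and 2 were higher, beside 15.2% of all loci lower and 13.5% higher. The median log2 ratio was -0.11, against 0.02 for all loci. In Col roots 26 of 43 were lower and 2 were higher, beside 15.4% and 15.8% of all loci, and the median was -0.87, against 0.00 for all loci. With a 2-fold minimum 5 of 42 (11.9%) were lower in *cbp20* roots, beside 8.13% of all loci, and 20 of 43 (46.5%) in Col roots, beside 7.93%. *LHCA6* did not reach 1 FPKM in the roots of either genotype, and *LHCB7* did not in *cbp20* roots.

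**Figure D1:**
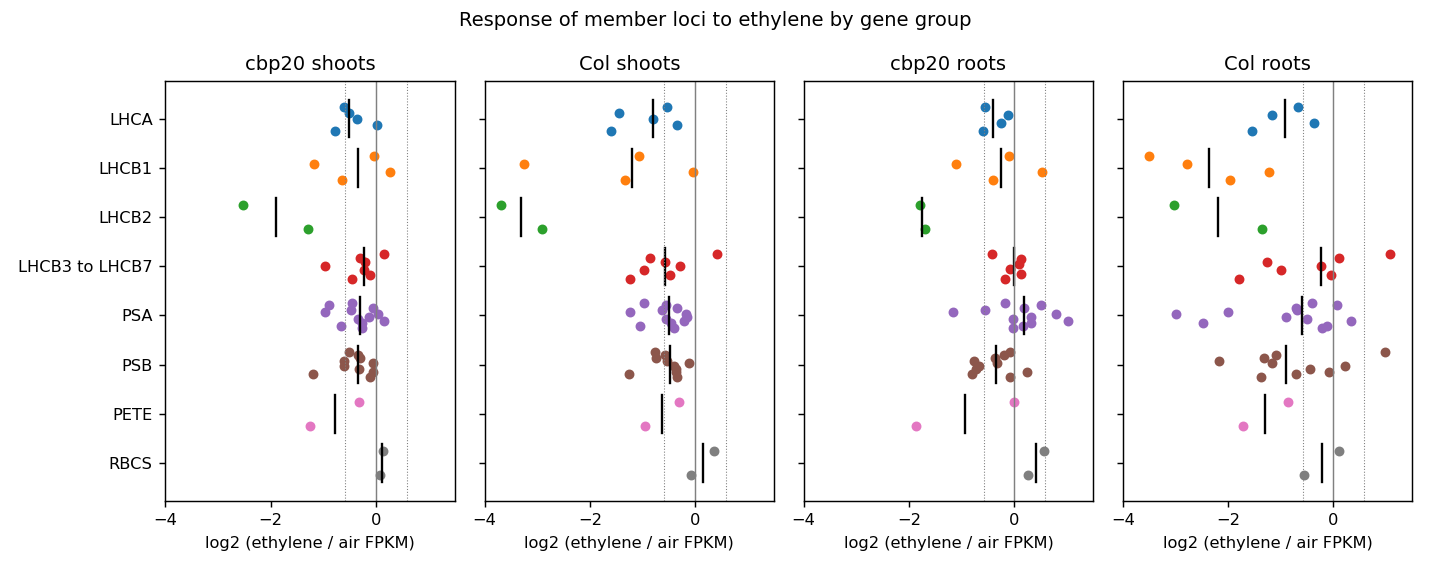
Each point is 1 member locus, placed by its log2 ratio of ethylene to air FPKM in 1 table, the black bar is the median of its gene group, and dotted lines mark the 1.5-fold limits. *LHCB2* has the lowest group median in both shoots, -1.90 in *cbp20* and -3.30 in Col. The *RBCS* loci lie within the 1.5-fold limits throughout, from -0.56 in Col roots to 0.57 in *cbp20* roots.

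*LHCB2* was the gene group with the lowest median ratio in shoots, although *LHCB1.4* lay between its 2 loci in Col shoots. *LHCB2.3* (AT3G27690) had 121 FPKM in ethylene and 692 FPKM in air in *cbp20* shoots, and 23.7 and 306 FPKM in Col shoots. Its root level was 4.69 and 16.3 FPKM in ethylene and air in *cbp20*, and 0.397 and 3.24 FPKM in Col. Its level was thus 5.74-fold lower in ethylene than in air in *cbp20* shoots and 12.9-fold lower in Col shoots. The joined locus of *LHCB2.1* (AT2G05100) and *LHCB2.2* (AT2G05070) had 302 and 737 FPKM in ethylene and air in *cbp20* shoots, and 77.3 and 581 FPKM in Col shoots. Root levels were 6.95 and 22.6 FPKM in ethylene and air in *cbp20*, and 1.75 and 4.45 FPKM in Col. Copies of one family share sequence, so the split of reads between them is uncertain, and the sum over the family avoids that split. The *LHCB2* sum was 423 FPKM in ethylene and 1429 FPKM in air in *cbp20* shoots, and 101 and 887 FPKM in Col shoots, which is 3.38-fold and 8.78-fold lower in ethylene.

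The *LHCB1* loci differed among themselves. *LHCB1.3* (AT1G29930, also called *CAB1*) had 9329 FPKM in ethylene and 7757 FPKM in air in *cbp20* shoots, and 6031 and 6192 FPKM in Col shoots, the highest level of any member in each shoot group. In roots it had 236 and 164 FPKM in ethylene and air in *cbp20*, and 27.9 and 65.5 FPKM in Col, so that it was past the fold in Col roots alone. *LHCB1.4* (AT2G34430) had 404 and 915 FPKM in ethylene and air in *cbp20* shoots, and 34.6 and 330 FPKM in Col shoots. Its root level was 9.38 and 20.1 FPKM in ethylene and air in *cbp20*, and 0.586 and 4.03 FPKM in Col. It was past the fold and lower in all 4 tables, 2.26-fold in *cbp20* shoots and 9.54-fold in Col shoots. Its neighbour *LHCB1.5* (AT2G34420) had 2864 and 2948 FPKM in ethylene and air in *cbp20* shoots, and 1104 and 2316 FPKM in Col shoots. Root levels were 42.7 and 45.9 FPKM in ethylene and air in *cbp20*, and 1.63 and 18.4 FPKM in Col, the lowest ratio of any member in Col roots. The joined locus of *LHCB1.1* and *LHCB1.2* had 1024 and 1591 FPKM in ethylene and air in *cbp20* shoots, and 317 and 796 FPKM in Col shoots. The *LHCB1* sum was 13621 FPKM in ethylene and 13211 FPKM in air in *cbp20* shoots, and 7487 and 9635 FPKM in Col shoots. The family sum was thus within 1.5-fold between ethylene and air in shoots, while the share of its members shifted. *LHCB1.3* was 68.5% of that sum in ethylene and 58.7% in air in *cbp20* shoots, and 80.6% and 64.3% in Col shoots. In roots it was 75.6% in ethylene and 62.7% in air in *cbp20*, and 85.1% and 66.6% in Col. The *LHCB1* sum in roots was 312 and 262 FPKM in ethylene and air in *cbp20*, and 32.8 and 98.3 FPKM in Col. In Col roots the sum was thus 3.00-fold lower in ethylene.

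**Figure D2:**
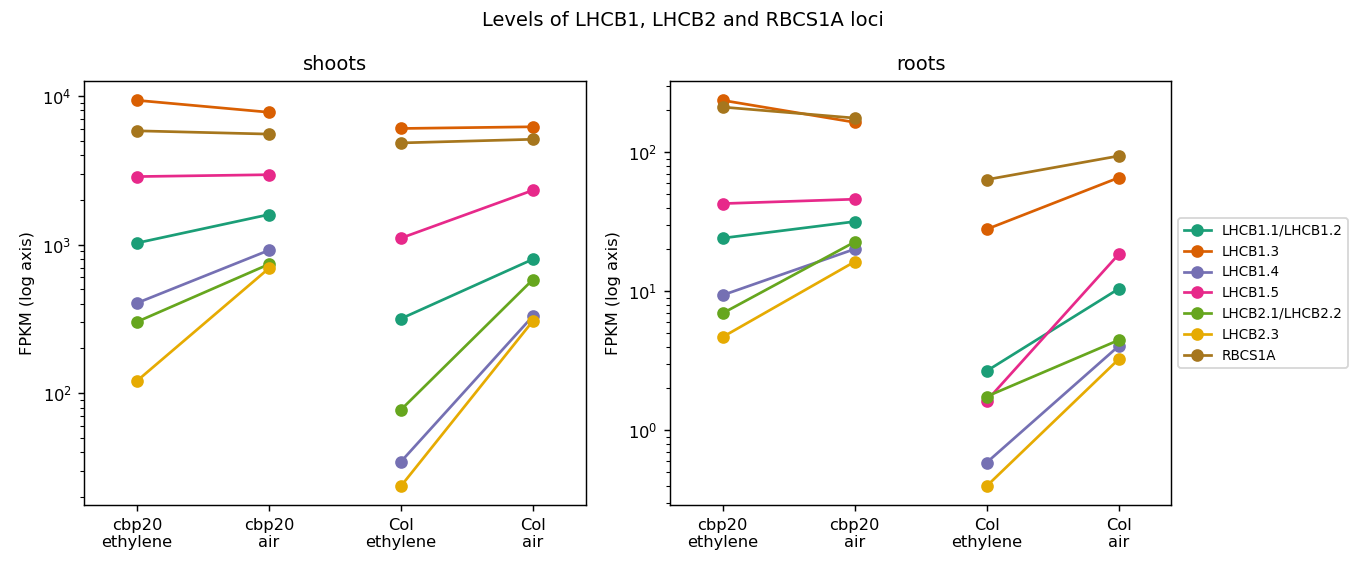
FPKM (log axis) of 6 *LHCB1* and *LHCB2* loci and *RBCS1A* in ethylene and air, with shoots on the left and roots on the right. Lines join ethylene and air within 1 table, each point is 1 pooled value, and *LHCB2.3* has the lowest ratio in Col shoots, with 23.7 FPKM in ethylene and 306 FPKM in air, while *LHCB1.3* and *RBCS1A* stay nearly level there.

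Among the other antenna genes of photosystem II, *LHCB3* to *LHCB7*, 1 of 7 loci was past the fold and lower in *cbp20* shoots and 3 of 7 were in Col shoots. The group medians were -0.23 and -0.58 on the log2 scale, and the count in *cbp20* shoots was under the 21.4% of all loci. In Col shoots 21.7% of all loci were lower. In *cbp20* roots none of 6 loci was past the fold, beside 15.2% of all loci lower and 13.5% higher. In Col roots 3 of 7 were lower and 1 was higher, beside 15.4% and 15.8%. *LHCB5* (AT4G10340), a minor antenna protein and the highest of the group, had 1587 and 1819 FPKM in ethylene and air in *cbp20* shoots, and 971 and 1451 FPKM in Col shoots. In roots it had 45.9 and 42.4 FPKM in ethylene and air in *cbp20*, and 7.39 and 17.7 FPKM in Col. *LHCB7* (AT1G76570), a rarely expressed relative, was the largest rise of any member in Col roots, at 1.80 FPKM in ethylene and 0.850 FPKM in air, values that lie near the minimum. It had 0.561 and 0.649 FPKM in ethylene and air in *cbp20* roots, 4.09 and 3.66 FPKM in *cbp20* shoots, and 4.79 and 3.59 FPKM in Col shoots.

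Of the antenna of photosystem I, 5 *LHCA* loci were named once. Of these 2 were past the fold and lower in *cbp20* shoots and 3 were in Col shoots. In roots 1 of 4 was lower in *cbp20* and 3 of 4 were in Col. Over all loci 21.4% and 21.7% were lower in *cbp20* and Col shoots, and 15.2% and 15.4% in *cbp20* and Col roots. With so few loci, the *cbp20* counts are not clearly above these shares. *LHCA4* (AT3G47470), the highest of them, had 1197 and 1708 FPKM in ethylene and air in *cbp20* shoots, and 484 and 1312 FPKM in Col shoots. Its root level was 56.8 and 83.4 FPKM in ethylene and air in *cbp20*, and 26.9 and 42.9 FPKM in Col. *LHCA1* (AT3G54890) was past the fold and lower in all 4 tables. *LHCA5*, which links photosystem I to the chloroplast NADH dehydrogenase-like complex, had 18.7 and 31.2 FPKM at the first of its rows in *cbp20* shoots in ethylene and air, and 27.9 and 36.6 FPKM in Col shoots. In roots that row was higher in ethylene, with 2.26 and 1.83 FPKM in ethylene and air in *cbp20*, and 3.37 and 1.91 FPKM in Col. Its other row had 5.72 and 0.197 FPKM in ethylene and air in *cbp20* roots, and 2.91 and 0 FPKM in Col roots, and did not exceed 1.77 FPKM in shoots.

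The core subunits of the photosystems moved less in shoots than the *LHCB2* loci did. Of 12 *PSA* loci 3 were past the fold and lower in *cbp20* shoots and 4 were in Col shoots, with group medians of -0.30 and -0.51. With 21.4% of all loci lower in *cbp20* shoots and 21.7% in Col shoots, the shares of 3 of 12 and 4 of 12 were not far above the background. In *cbp20* roots 1 of 12 was lower and 2 were higher, beside 15.2% and 13.5% of all loci. In Col roots 6 of 12 were lower and none was higher, beside 15.4% and 15.8%. *PSAG* (AT1G55670), which helps to bind the antenna of photosystem I, had 1086 and 1187 FPKM in ethylene and air in *cbp20* shoots, and 785 and 875 FPKM in Col shoots. Root levels were 39.9 and 32.0 FPKM in ethylene and air in *cbp20*, and 5.54 and 10.4 FPKM in Col. *PSAH1* and *PSAH2* encode a subunit at which the photosystem II antenna docks on photosystem I, and the 2 copies differed. *PSAH2* (AT1G52230) was past the fold and lower in all 4 tables, with 360 and 701 FPKM in ethylene and air in *cbp20* shoots, and 271 and 643 FPKM in Col shoots. *PSAH1* (AT3G16140) had 454 and 443 FPKM in ethylene and air in *cbp20* shoots, and 372 and 420 FPKM in Col shoots. In roots *PSAH1* had 15.5 and 8.92 FPKM in ethylene and air in *cbp20*, and 0.912 and 7.27 FPKM in Col, so that it was past the fold in opposite directions in the 2 genotypes. *PSAE2* (AT2G20260), a stromal subunit, was the largest rise in *cbp20* roots, at 17.0 FPKM in ethylene and 8.40 FPKM in air. It had 6.39 and 5.04 FPKM in ethylene and air in Col roots, 409 and 368 FPKM in *cbp20* shoots, and 284 and 331 FPKM in Col shoots.

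Of 10 *PSB* loci 3 were past the fold and lower in the shoots of either genotype, with group medians of -0.34 in *cbp20* and -0.48 in Col. A count of 3 among 10 is again not far above the 21.4% and 21.7% of all loci. In *cbp20* roots 4 of 10 were lower and none was higher, beside 15.2% and 13.5% of all loci. In Col roots 6 of 10 were lower and 1 was higher, beside 15.4% and 15.8%. *PSBX* (AT2G06520), a small membrane subunit of photosystem II, had 929 and 1188 FPKM in ethylene and air in *cbp20* shoots, and 833 and 1241 FPKM in Col shoots. In roots it had 39.2 and 44.9 FPKM in ethylene and air in *cbp20*, and 9.69 and 20.8 FPKM in Col. *PSBY* (AT1G67740), another small membrane subunit, had 242 and 348 FPKM in ethylene and air in *cbp20* shoots, and 197 and 335 FPKM in Col shoots. It had 9.43 and 10.1 FPKM in ethylene and air in *cbp20* roots, and 4.93 and 2.51 FPKM in Col roots, the opposite direction to that in Col shoots. PSBO stabilizes the manganese cluster that splits water, and its copies differed in shoots. *PSBO2* (AT3G50820) was lower in all 4 tables, with 95.3 and 218 FPKM in ethylene and air in *cbp20* shoots, and 82.6 and 198 FPKM in Col shoots. *PSBO1* (AT5G66570), the more abundant copy, had 1093 and 1190 FPKM in ethylene and air in *cbp20* shoots, and 830 and 1047 FPKM in Col shoots. In roots *PSBO1* had 40.7 and 43.4 FPKM in ethylene and air in *cbp20*, and 11.6 and 29.9 FPKM in Col, which is 2.59-fold lower in ethylene in Col roots, against 1.65-fold for *PSBO2* there.

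Plastocyanin has a minor and a major copy as well. *PETE1* (AT1G76100) had 59.4 and 141 FPKM in ethylene and air in *cbp20* shoots, and 45.7 and 88.5 FPKM in Col shoots. Its root level was 1.54 and 5.57 FPKM in ethylene and air in *cbp20*, and 0.928 and 3.06 FPKM in Col, and it was past the fold in all 4 tables. *PETE2* (AT1G20340) had 678 and 844 FPKM in ethylene and air in *cbp20* shoots, and 541 and 664 FPKM in Col shoots. Root levels were 19.2 and 19.3 FPKM in ethylene and air in *cbp20*, and 3.65 and 6.66 FPKM in Col. The Rubisco small subunit was past the fold in no table. *RBCS1A* (AT1G67090) had 5817 and 5530 FPKM in ethylene and air in *cbp20* shoots, and 4823 and 5101 FPKM in Col shoots. In roots it had 211 and 176 FPKM in ethylene and air in *cbp20*, and 63.5 and 93.9 FPKM in Col. The joined locus of the other 3 *RBCS* genes had 2918 and 2651 FPKM in ethylene and air in *cbp20* shoots, and 2875 and 2245 FPKM in Col shoots. Its root level was 103 and 69.6 FPKM in ethylene and air in *cbp20*, and 35.1 and 32.7 FPKM in Col.

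Over the 4 tables, 7 loci were past the fold and lower in each of them, namely *LHCA1*, *LHCB1.4*, *LHCB2.1* with *LHCB2.2*, *LHCB2.3*, *PSAH2*, *PSBO2* and *PETE1*. They were 16.7% of the 42 loci tested in every table, beside 3.13% of all such loci. Another 7 were past the fold in none, beside 41.9% of all loci, namely *LHCA2*, *LHCB4.1*, *PSAD1*, *PSAF*, *PSBP1*, *RBCS1A* and the joined *RBCS* locus. In shoots, 9 of 44 loci (20.5%) were lower in both genotypes, beside 11.6% of all loci. Past the fold in *cbp20* and not in Col were 5 (*LHCA6*, *LHCB4.3*, *PSAN*, *PSBQ2* and *PSBS*), which is 11.4%, beside 8.97% of all loci, and past it in Col and not in *cbp20* were 10 (*LHCA3*, *LHCA4*, *LHCB1.5*, *LHCB3*, *LHCB4.2*, *LHCB6*, *PSAK*, *PSAO*, *PSBW* and *PSBY*), which is 22.7%, beside 8.90% of all. That alone does not show that the genotypes differ at these loci. The level in air is also part of the ratio, and the loci share their libraries. Across loci, Spearman's rho between that level and the log2 ratio was 0.41 in *cbp20* shoots and 0.14 in Col shoots (44 loci), 0.09 in *cbp20* roots (42 loci) and 0.05 in Col roots (43 loci), and Pearson's r was 0.21, 0.00, 0.20 and 0.02 in that order.

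The ethylene response of each locus was next set side by side in the 2 genotypes, which were sequenced from separate libraries. In shoots the log2 ratio was higher, that is less negative, in *cbp20* than in Col for 35 of 44 loci (79.5%), beside 51.1% of all loci, and the median difference of *cbp20* minus Col was 0.26. In roots it was higher in *cbp20* for 35 of 42 loci (83.3%), beside 52.1% of all loci, with a median difference of 0.82. The difference of the log2 ratios in shoots was greatest at *LHCB1.4* (2.08), the joined *LHCB2.1* and *LHCB2.2* locus (1.62), *LHCB2.3* (1.17) and *LHCB1.5* (1.03). At *LHCB4.3* it was lowest, at -0.68. Across loci the ratios in *cbp20* and Col had a Pearson correlation of 0.81 in shoots (n = 44) and 0.35 in roots (n = 42). Whether any of these differences exceeds the spread between libraries was not tested, since the tables hold no library values.

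**Figure D3:**
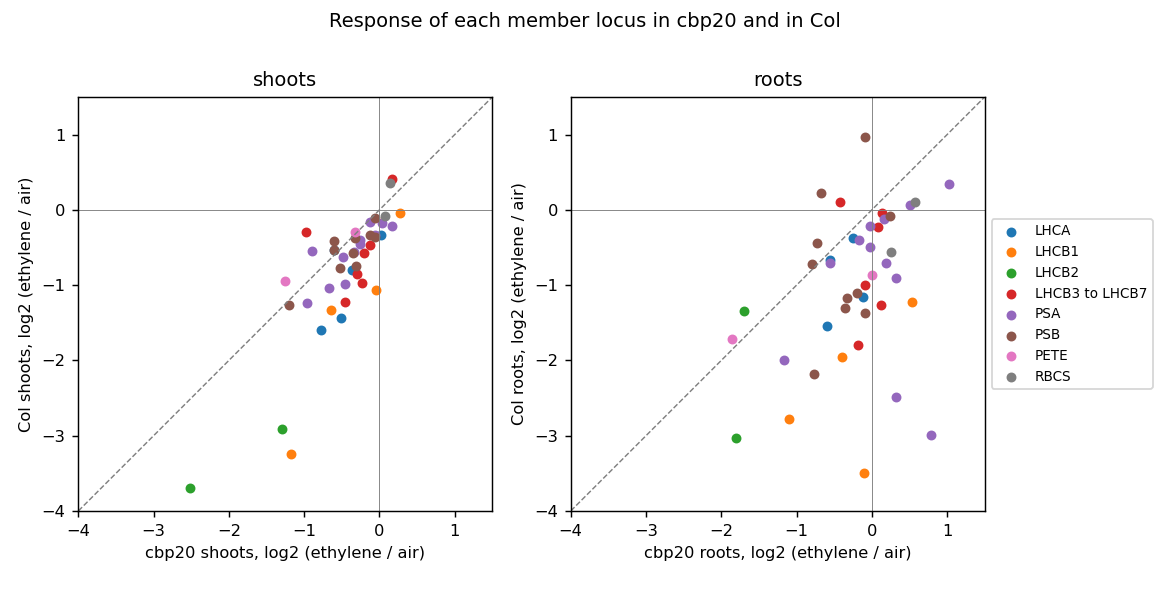
Log2 ratio of ethylene to air for each member locus in *cbp20* (x axis) and Col (y axis), in shoots on the left and roots on the right, with points coloured by gene group and a dashed line where the 2 ratios are equal. Most points lie under the line, 35 of 44 in shoots and 35 of 42 in roots, where the ratio was higher in *cbp20* than in Col.

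Levels were also compared between genotypes within one treatment. In shoots in ethylene, *cbp20* was at least 1.5-fold higher than Col at 15 of 44 loci, beside 16.2% of all loci, with a median of 1.32-fold. Of these 15, 14 were *LHCA* or *LHCB* loci, and the other was *PSAD2*. In shoots in air, 4 of 44 were higher, beside 13.9% of all loci, with a median of 1.12-fold, and these were *LHCB1.1* with *LHCB1.2*, *LHCB1.4*, *LHCB2.3* and *PETE1*. In ethylene *LHCB1.4* was 11.7-fold higher in *cbp20* shoots than in Col shoots, and in air it was 2.77-fold higher.

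In roots the genotypes were farther apart. In ethylene 37 of 43 loci were at least 1.5-fold higher in *cbp20* than in Col, beside 15.8% of all loci, with a median of 3.43-fold. In air 33 of 42 were, beside 16.0% of all loci, with a median of 2.15-fold. *LHCB1.5* was 26.3-fold higher in ethylene and 2.49-fold higher in air, and *PSAH2* was 15.6-fold and 8.78-fold higher. *PSAH2* had 7.76 and 17.5 FPKM in ethylene and air in *cbp20* roots, and 0.498 and 1.99 FPKM in Col roots. *LHCB1.5* had 1.63 FPKM in Col roots in ethylene. Folds over such low levels are uncertain in size, and the 2 genotypes were normalized separately. The summed level of the 44 loci was 1496 FPKM in ethylene and 1494 FPKM in air in *cbp20* roots, against 469 and 738 FPKM in Col roots. In shoots it was 44784 and 50166 FPKM in ethylene and air in *cbp20*, against 31085 and 42060 FPKM in Col. Fewer cells of a type and less RNA per cell cannot be told apart in whole roots.

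Because shoot tissue carries these transcripts at a much higher level, genes that mark the shoot were listed beside the root values. The 12 shoot markers summed to 42.0 FPKM in ethylene and 45.8 FPKM in air in *cbp20* roots, against 25.5 and 26.5 FPKM in Col roots. In shoots the sum was 314 and 558 FPKM in ethylene and air in *cbp20*, against 289 and 633 FPKM in Col. Between 3 and 5 of the 12 stood at 0 in each root group, *MUTE* and *EPF2* of the stomatal lineage in all of them. *CUC2*, a boundary gene, was at 0 in *cbp20* roots and at 0.403 and 0.0722 FPKM in Col roots in ethylene and air. The largest part of the sum in roots was *PDF1*, an epidermal gene of the shoot tip, with 22.0 and 28.9 FPKM in ethylene and air in *cbp20* and 8.94 and 12.9 FPKM in Col, which was named after its value was seen. In shoots *PDF1* alone held 169 and 462 FPKM of the sum in ethylene and air in *cbp20*, and 150 and 535 FPKM in Col. The lower sum in ethylene there is therefore not a trait of the markers in general. In *cbp20* shoots 4 of the 12 were past the fold and higher and 2 were lower, beside 15.7% and 21.4% of all loci. In Col shoots 2 were higher and 4 were lower, beside 15.4% and 21.7%. *HLS1*, an apical hook gene, had 3.57 and 2.26 FPKM in ethylene and air in *cbp20* roots, and 1.92 and 2.41 FPKM in Col roots. In shoots *HLS1* had 33.3 and 6.02 FPKM in ethylene and air in *cbp20*, and 34.5 and 6.26 FPKM in Col. The 12 root markers measured summed to 1937 and 1420 FPKM in ethylene and air in *cbp20* roots, against 1358 and 1015 FPKM in Col roots. *CASP1*, named after its value was seen, held 1063 and 805 FPKM of that in ethylene and air in *cbp20* roots, and 775 and 638 FPKM in Col roots. In shoots the root markers summed to 336 and 271 FPKM in ethylene and air in *cbp20*, and 284 and 230 FPKM in Col. *CASP1* held 276 and 203 FPKM of the shoot sum in ethylene and air in *cbp20*, and 238 and 183 FPKM in Col. In *cbp20* roots 4 of 11 root markers were past the fold and higher and 1 was lower, beside 13.5% and 15.2% of all loci. In Col roots 4 of 10 were higher and 0 lower, beside 15.8% and 15.4%. The root hair genes *EXPA7*, *EXPA18* and *RSL4* were among the higher ones in the roots of both genotypes. *EXPA7* had 170 and 73.3 FPKM in ethylene and air in *cbp20* roots, and 149 and 70.8 FPKM in Col roots. *EXPA18* had 141 and 64.5 FPKM in ethylene and air in *cbp20* roots, and 98.4 and 45.7 FPKM in Col roots. *RSL4*, which drives root hair growth, had 50.8 and 24.2 FPKM in ethylene and air in *cbp20* roots, and 43.3 and 14.3 FPKM in Col roots. The part of shoot tissue in the root levels of the members was not tested.

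**Figure D4:**
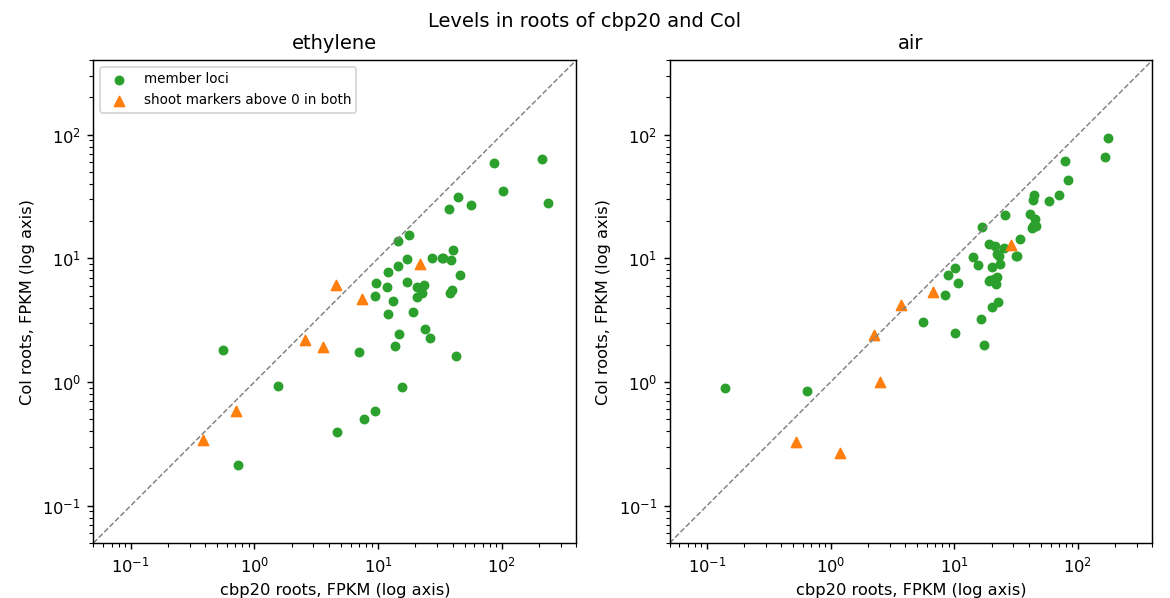
FPKM (log axes) in *cbp20* roots (x axis) and Col roots (y axis), in ethylene on the left and air on the right. Circles are the 44 member loci, triangles are shoot markers above 0 in both genotypes, and the dashed line marks equal levels, under which most members lie, at a median 3.43-fold higher level in *cbp20* in ethylene and 2.15-fold in air.

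Other genes of the photosynthetic pathway were counted from lists, to be read against the 21.4% of all loci lower in *cbp20* shoots and 21.7% in Col shoots, and the 15.2% and 15.4% lower in *cbp20* and Col roots. Of 16 Calvin cycle enzymes 2 were past the fold and lower in the shoots of either genotype, under the share of all loci, and none was higher, with a median log2 ratio of -0.09 in *cbp20* and -0.16 in Col. *GAPA2*, a subunit of chloroplast glyceraldehyde phosphate dehydrogenase, had 142 and 241 FPKM in ethylene and air in *cbp20* shoots, and 126 and 233 FPKM in Col shoots. *RPI3*, a ribose phosphate isomerase, had 4.37 and 19.4 FPKM in ethylene and air in *cbp20* shoots, and 8.11e-05 and 2.42 FPKM in Col shoots. In roots *RPI3* had 13.7 and 17.8 FPKM in ethylene and air in *cbp20*, and 26.1 and 24.9 FPKM in Col. Its value in Col shoots in ethylene lies at the floor, so the size of that ratio carries no meaning. *RPI3* and *GAPA2* are the 2 counted as lower. The aldolase *FBA1* had 92.8 and 124 FPKM in ethylene and air in *cbp20* shoots, and 71.1 and 92.6 FPKM in Col shoots. Of 12 genes for electron transport and ATP synthase 1 was lower in the shoots of either genotype, also under that share, with medians of -0.27 in *cbp20* and -0.19 in Col. It was not the same gene, being *PGRL1B* in *cbp20* shoots and *FD2* in Col shoots. *PGRL1B* had 16.9 and 25.4 FPKM in ethylene and air in *cbp20* shoots, and 18.4 and 19.6 FPKM in Col shoots. *FD2*, the main leaf ferredoxin, had 532 and 772 FPKM in ethylene and air in *cbp20* shoots, and 509 and 831 FPKM in Col shoots. *PETC*, the Rieske protein of the cytochrome complex, had 272 and 241 FPKM in ethylene and air in *cbp20* shoots, and 286 and 255 FPKM in Col shoots, and *PGR5*, of cyclic electron flow, had 60.6 and 89.2 FPKM in *cbp20* shoots and 58.9 and 80.2 FPKM in Col shoots. Of 14 measured genes for photosystem assembly and antenna targeting 6 were lower in *cbp20* shoots with none higher, and in Col shoots 5 were lower and 1 was higher, with medians of -0.29 and -0.28. *ELIP1* and *ELIP2*, light-induced relatives of the antenna proteins, were among the lowest ratios. *ELIP1* had 42.4 and 180 FPKM in ethylene and air in *cbp20* shoots, and 15.0 and 146 FPKM in Col shoots. *ELIP2* had 18.0 and 93.4 FPKM in ethylene and air in *cbp20* shoots, and 6.18 and 49.2 FPKM in Col shoots. *OHP1*, a small one-helix relative, had 62.2 and 108 FPKM in ethylene and air in *cbp20* shoots, and 70.0 and 110 FPKM in Col shoots. In roots 1 of 16 Calvin cycle genes was lower in *cbp20* and 3 of 15 were in Col, and of the electron transport genes 1 of 12 was lower in *cbp20* and 0 of 11 in Col. Of the 14 assembly and targeting genes 3 were lower and 1 was higher in *cbp20* roots, and 4 were lower and 2 were higher in Col roots. *GAPA2*, *FBA1*, *OHP1*, *PETC* and *PGR5* had a lower ratio of ethylene to air in Col roots than in Col shoots. The log2 ratio of *PETC* was -0.55 in Col roots and 0.17 in Col shoots. In ethylene and air in Col roots *GAPA2* had 0.527 and 3.42 FPKM, *FBA1* 0.385 and 1.69 FPKM and *OHP1* 0.496 and 2.75 FPKM. *PETC* had 5.25 and 7.69 FPKM there, and *PGR5* 3.83 and 5.52 FPKM. All of these are low levels.

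Regulators of photosynthesis genes formed the next list. Of 19, 9 were past the fold and lower and 2 were higher in *cbp20* shoots, and 10 were lower and 1 was higher in Col shoots, with median log2 ratios of -0.41 and -0.79. Over all loci 21.4% were lower and 15.7% higher in *cbp20* shoots, and 21.7% and 15.4% in Col shoots. In roots 6 of 15 were lower and 2 were higher in *cbp20*, and 4 of 13 were lower and 1 was higher in Col. The shares of all loci were 15.2% lower and 13.5% higher in *cbp20* roots, and 15.4% and 15.8% in Col roots. *GLK2*, an activator of photosynthesis genes, had 59.1 and 78.6 FPKM in ethylene and air in *cbp20* shoots, and 8.17 and 57.9 FPKM in Col shoots. It was therefore not past the fold in *cbp20* shoots and past it in Col shoots. *SIG5*, a sigma factor of the chloroplast RNA polymerase, had 2.11 and 10.2 FPKM in ethylene and air in *cbp20* shoots, and 0.476 and 5.80 FPKM in Col shoots. *CGA1*, a GATA factor, had 1.26 and 2.56 FPKM in ethylene and air in *cbp20* shoots, and 0.130 and 1.08 FPKM in Col shoots. The next genes were named after their values were seen. *HY5* had 68.9 and 78.2 FPKM in ethylene and air in *cbp20* shoots, and 21.6 and 57.9 FPKM in Col shoots. *GLK1* had 5.86 and 16.4 FPKM in ethylene and air in *cbp20* shoots, and 4.18 and 25.4 FPKM in Col shoots. *PIF3*, a repressor of photosynthesis genes in the dark, was higher in ethylene, with 163 and 68.3 FPKM in *cbp20* shoots, and 167 and 60.6 FPKM in Col shoots. The other *PIF* genes of the list were not higher in ethylene in shoots. *PIF4* had 9.74 and 24.9 FPKM in ethylene and air in *cbp20* shoots, and 7.56 and 25.3 FPKM in Col shoots. *PIF5* had 16.8 and 32.1 FPKM in ethylene and air in *cbp20* shoots, and 13.8 and 20.3 FPKM in Col shoots, and *PIF1* was not past the fold in either. The clock gene *CCA1* had 11.1 and 31.4 FPKM in ethylene and air in *cbp20* shoots, and 3.30 and 17.8 FPKM in Col shoots. The part of these regulators in the levels of the members was not tested.

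**Figure D5:**
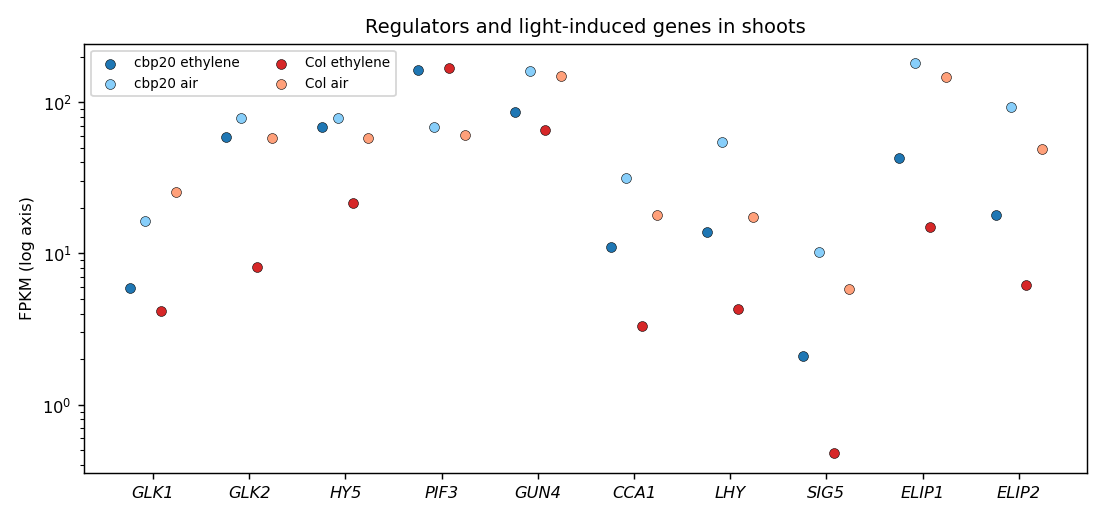
FPKM (log axis) of 10 regulators and light-induced genes in shoots, with each point 1 pooled value in *cbp20* ethylene, *cbp20* air, Col ethylene or Col air, from left to right. *PIF3* is the one of the 10 with higher values in ethylene (163 and 167 FPKM) than in air (68.3 and 60.6 FPKM). Each of the other genes has its lowest value in Col in ethylene, such as 8.17 FPKM for *GLK2* and 21.6 FPKM for *HY5*.

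The 250 bases upstream of the start were searched on both strands in all 49 members and in all 27443 protein-coding genes of the RefSeq annotation, for 4 motifs known from light-regulated or clock-regulated plant promoters. CCAATC was in 13 of 49 member windows (26.5%), beside 10.2% of all genes. It was in 7 of the 15 *LHCB* windows and 3 of the 6 *LHCA* windows, and in none of the 12 *PSA* windows. The G-box CACGTG was in 10 windows (20.4%), beside 6.57% of all genes. The I-box core GATAAG was in 13 (26.5%), beside 12.4%, and the CCA1 site AAAAATCT was in 5 (10.2%), beside 6.65%. None of the 4 motifs contains another. Near-identical copies share upstream sequence, so windows are not independent. CCAATC stood in windows of loci that were lower in all 4 tables (*LHCB2.3*, *LHCB2.1*, *LHCB2.2*, *LHCA1* and *PETE1*). The windows of *LHCB1.4*, *PSAH2* and *PSBO2*, also lower in all 4, held none. It stood as well in that of *LHCB1.3*, not past the fold in shoots, and of *LHCB4.1*, past it in no table. A match is a run of letters and does not show that a factor binds there.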

How the data were processed

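The labels assign 16 libraries to 8 groups, 2 in each. Per the methods and the submitters' notes, the authors mapped poly(A) RNA reads on TAIR10 (TopHat2 2.0.9) and ran Cuffdiff 2.2.1 for each organ and genotype. The deposited FPKM values are pooled, 1 for each group, and the 4 tables were normalized separately. The authors' own fold change, p-value and status columns were not used. All analysis ran on the FPKM columns with Python 3.11.15, numpy 2.4.6, pandas 2.3.3 and matplotlib 3.10.9, and the scripts were tested on simulated data. The sources used here give no read depth, so the precision of a value is unknown.

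Of 35814 loci, 1729 with no gene name and 2952 with a repeated name were left out, and 31133 were used. Log2 ratios are of plain FPKM, for loci with at least 1 FPKM in either group. Of 26190 single-gene loci found in RefSeq, 100.0% overlap the gene at the coordinates of the RefSeq assembly TAIR10.1. Upstream windows and motifs are from that assembly.

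Members and lists were chosen with earlier results of these data known. The text gives values for the highest member of each group, the 3 largest rises and falls past the fold in each table, members past it in opposite directions, *LHCB1.3*, and up to 3 genes of each other list with the largest ratios in Col. Genes named outside that rule are *LHCB4.3*, *PDF1*, *CASP1*, *PGRL1B*, *HY5*, *GLK1*, *PIF1*, *PIF3*, *PIF4*, *PIF5*, *CCA1* and further members set beside those of the rule. From the lists *CPSRP54* and *PRP3* were not measured at a locus named once. The alternatives were 8 settings, and 3 more chosen after seeing the data.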

Additional observations from a re-analysis of the deposited data

Results flagged for a closer look

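*PSAH1* was past the fold in opposite directions in the roots of the 2 genotypes, with a log2 ratio of ethylene to air of 0.79 in *cbp20* roots and -2.99 in Col roots. *PSBY* was past it in opposite directions in the 2 organs of Col, with -0.77 in Col shoots and 0.97 in Col roots. Each ratio rests on 1 pooled value for each group, and the difference was not tested in either case. *PSAH1* had 0.912 FPKM in Col roots in ethylene, and *PSBY* had 2.51 FPKM in Col roots in air, both low levels.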

How the results depend on the processing

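Over 16 counts and medians, 11 other settings gave 154 values. Of these 142 kept their size (a count within 1.5 times, a median within 0.1 on the log2 scale), 12 moved and 0 changed direction. With a 2-fold minimum the members lower in ethylene numbered 5 in *cbp20* shoots, 11 in Col shoots and 5 in *cbp20* roots (beside 12.2%, 13.4% and 8.13% of all loci), and those higher numbered 1 in *cbp20* roots and 1 in Col roots. The count of members higher in Col roots was 1 with at least 1 FPKM in both groups and 0 with at least 5 FPKM in either. The median log2 ratio in Col roots was -0.71 and -0.72 under these 2 filters, -0.72 on the log2(FPKM + 1) scale and -0.72 with near-identical copies summed. The median log2 level of *cbp20* over Col roots in ethylene was 1.63 on the log2(FPKM + 1) scale. The cause of these shifts was not tested. No paired analysis was possible because the columns carry no replicate. For the same reason no library could be left out. The unknown depth limits what ratios at low root levels can show.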
